A study of Mus musculus with 4 samples.

Results

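Deubiquitinases are the proteases that take ubiquitin off other proteins or cut ubiquitin chains apart, and so oppose the ligases that attach it. The ubiquitin-specific proteases (USP), the ovarian tumour domain proteases (OTU) and the ubiquitin C-terminal hydrolases (UCH) are cysteine proteases. Some recycle ubiquitin at the proteasome, some set the lifetime of a single regulator such as p53 or MYC, and others act on histones, receptors or membrane proteins. The members described here are the protein-coding mouse genes whose symbols begin with Usp and a digit, Otud, Otub or Uchl, without Usp9y and the Usp17l genes. There were 64 of them (50 USP, 10 OTU and 4 UCH) among 53465 gene identifiers in the count table. The rule goes by name, and so it takes in Usp6nl, a GTPase-activating protein for Rab GTPases, and Usp39, a spliceosome factor that lacks the catalytic cysteine.

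The libraries were made from polyadenylated RNA of cells labelled MLE-12, a line of immortalized epithelial cells from mouse lung that serves as a model of alveolar type 2 cells. In 2 libraries, numbered replicates 2 and 3, the cells had received 5 µM 1-nitropyrene, a nitrated polycyclic hydrocarbon of diesel exhaust, for 12 h. The other 2, control replicates 1 and 2, came from cells kept without it. The stated aim was the influence of the compound on translation of the mRNA of Fbxw7, a ubiquitin ligase subunit, and the counts used here measure RNA level alone.

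Total counts were 8797502 and 8601825 in the 1-nitropyrene libraries and 10773733 and 6908055 in the control libraries. Although the labels give polyadenylated RNA, rRNA loci took 44.5% and 44.3% of the counts with 1-nitropyrene and 46.1% and 45.8% in control, and all totals and CPM include them. The members together held 0.369% and 0.368% of these counts with 1-nitropyrene and 0.346% and 0.356% in control. Of 12 lung epithelial markers, 9 had 0 counts in all 4 libraries, including Krt8, Krt18, Cdh1, Epcam, Nkx2-1 and Sftpb. Nearly all counts of that list were in Abca3, and its sum was 9.43 and 8.02 CPM (counts scaled to a common library total) with 1-nitropyrene and 10.4 and 8.11 CPM in control. The labelled cell type was therefore not borne out by its defining markers. Of 21942 protein-coding genes, 12111 had 0 counts in every library. Whether all reads came from the labelled cells was not tested, so a count of 0 for a member says only that no read was assigned to it. Fibroblast markers, with 1 of 8 at 0 in all libraries (Thy1), summed to 1.48 and 1.05 CPM with 1-nitropyrene and 6.96 and 3.91 CPM in control. Sums of the endothelial and leukocyte markers were at most 0.341 CPM in every library, with 2 of 5 and 2 of 6 at 0 throughout. The mitochondrially encoded mRNAs summed to 24.6 and 1.86 CPM with 1-nitropyrene and 46.9 and 30.4 CPM in control. This sum was low in all 4 libraries, below the member Usp7 alone (388 to 405 CPM), and lowest in 1-nitropyrene replicate 3. The part of these differences in the results below was not tested. In such bulk libraries, fewer cells of a type and less RNA per cell cannot be told apart.

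Of the 64 members, 49 had enough counts to be tested, 6 had a few counts and 9 had 0 counts in every library. The sequences below show, for 12 of the 13 members whose level changed, the coding DNA around the cysteine that does the chemistry, which is what makes these genes 1 class. Each is 5′ to 3′ in the coding sense, taken from the GENCODE M21 transcripts, and the codon of the cysteine is in capitals. It was located by each family's cysteine motif in the translated longest coding transcript, and other transcripts were not searched. In the transcript used, Usp47 and Usp21 matched only a looser form of the USP motif that fixes fewer of the residues before the cysteine. Whether another transcript of either gene holds the stricter form is therefore not known, and their stretches may differ there. The first 8 belong to members that rose and the last 4 to members that fell.
Usp5: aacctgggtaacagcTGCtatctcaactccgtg
Usp19: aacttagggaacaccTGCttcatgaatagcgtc
Usp9x: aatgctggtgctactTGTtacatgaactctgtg
Usp4: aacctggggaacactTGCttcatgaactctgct
Usp34: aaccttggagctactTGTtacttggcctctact
Otud5: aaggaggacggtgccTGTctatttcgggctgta
Otub1: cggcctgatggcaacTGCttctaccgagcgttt
Uchl5: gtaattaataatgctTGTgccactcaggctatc
Usp47: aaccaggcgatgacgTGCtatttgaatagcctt
Usp32: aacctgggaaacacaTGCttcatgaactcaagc
Usp21: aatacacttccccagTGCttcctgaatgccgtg
Otub2: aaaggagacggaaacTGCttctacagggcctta
The motif was found in 45 of 50 USP members, 8 of 10 OTU members and all 4 UCH members. Usp39 and Usp6nl were among the 7 without a match, along with Usp18, Usp53, Usp54, Otud6a and Otud6b. The motif also requires particular residues beside the cysteine, so a missing match does not show that the cysteine is absent.

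The comparison asked which of these genes changed in RNA level with 1-nitropyrene. Values are CPM scaled with TMM factors, which correct library sizes for composition. A mean ± SD is over the 2 libraries of a group (n = 2). The two-sided quasi-likelihood test of edgeR was run on 7738 genes, and a gene was called at an adjusted p under 0.05. Of the 49 tested members, 8 rose and 5 fell, while 36 were not called. The 13 calls are 26.5% of the tested members, and 24.5% of all tested genes were called, 13.2% higher and 11.2% lower, so the share of members called was near that of genes at large. The median log2 fold change was 0.03 over the members and -0.00 over all tested genes. Both 1-nitropyrene libraries lay on one side of both controls in 30 of 49 members (61.2%), against 59.2% of all tested genes. They lay above both controls in 14 members, against 30.0% of all tested genes, and below both in 16, against 29.2%. The labels named no separate cultures. The p-values therefore measured only the spread between these libraries, which may be technical. That spread was pooled over genes by their level, so no gene had an estimate of its own.

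Most of the changes were small. Of the 13 called members, 2 changed by at least 1.5-fold, Usp5 upward and Otub2 downward, against 25.2% of all called genes at that size. Calls went with depth: 8 of the 12 members averaging at least 100 CPM were called and 5 of the 37 below it, against 56.4% and 19.0% of all tested genes. The standard error of the log2 fold change had a median of 0.05 in the deeper members and 0.14 in the others.

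**Figure D1:**
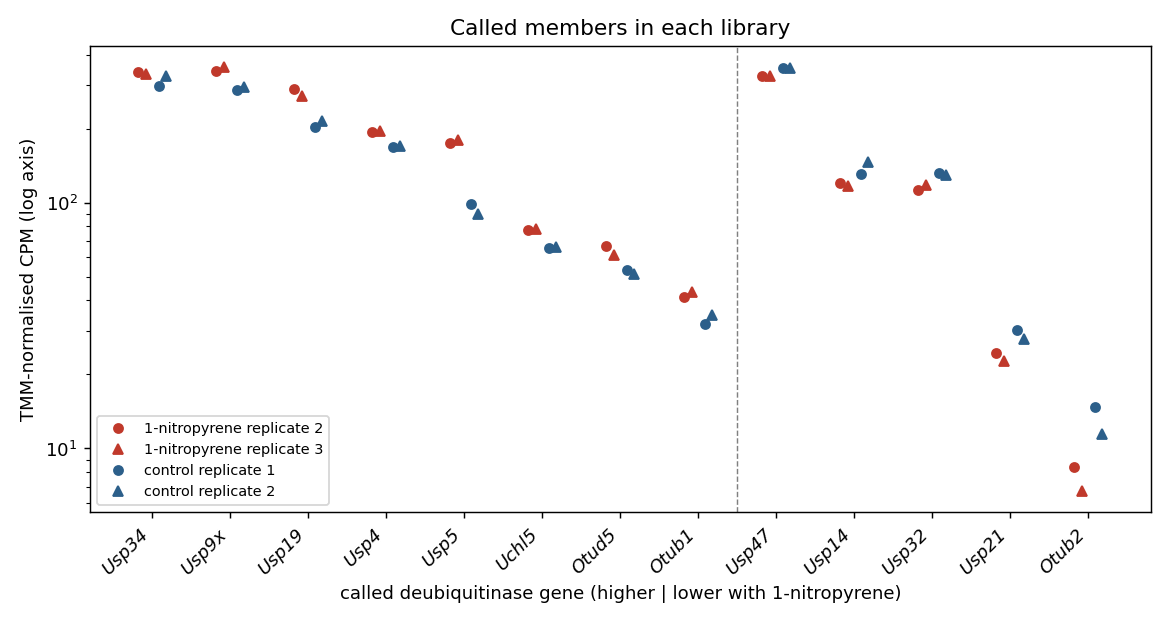
TMM-normalised CPM (vertical log axis) of the 13 called members in each library, with red for 1-nitropyrene and blue for control and 1 symbol per replicate. The 8 members that rose are left of the dashed line and the 5 that fell right of it. In each of the 13 the 2 red points lie on one side of both blue ones, and the gap is widest for Usp5 and Otub2.

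Ubiquitin recycling held the steepest rise. Usp5 (isopeptidase T; ENSMUSG00000038429, GRCm38 chromosome 6, 124815019 to 124829484, minus strand) takes apart free ubiquitin chains that are no longer attached to a protein. It had 175 and 179 CPM with 1-nitropyrene, against 98.9 and 90.01 CPM in control. The lowest treated library was well above the highest control, by far more than either pair of replicates differed. Its mean was 177 ± 2.79 CPM with 1-nitropyrene and 94.4 ± 6.27 CPM in control, a 1.86-fold rise (95% interval 1.73 to 2.01, log2 fold change 0.90, SE 0.06, adjusted p = 7.49e-56, edgeR). By p it ranked 28 of all 7738 tested genes, but by size of fold change in either direction it ranked 314. Its call held in all 16 alternative settings, with log2 fold changes between 0.84 and 0.98. Its exons overlapped no gene on the opposite strand, and none of its 50-base stretches occurred in a transcript of another gene.

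Usp13, the closest relative of Usp5, was not called. It had 15.5 and 18.9 CPM with 1-nitropyrene and 20.8 and 21.8 CPM in control (log2 fold change -0.30, SE 0.14, adjusted p = 0.107, edgeR), so both treated libraries were below both controls. The difference between the changes of Usp5 and Usp13 was not tested.

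The 2 deubiquitinases that dock on the proteasome moved in opposite directions, though an alternative test, DESeq2, called neither. Usp14, which trims chains on proteasome-bound substrates, had 121 and 117 CPM with 1-nitropyrene and 130.3 and 147 CPM in control. Its mean was 119 ± 2.54 CPM with 1-nitropyrene and 139 ± 11.7 CPM in control (log2 fold change -0.21, SE 0.06, adjusted p = 0.00134, edgeR). The fall was smaller and not called without control replicate 2, the higher of the controls (-0.14, adjusted p = 0.188). Uchl5 (UCH37), the other one, had 77.1 and 78.3 CPM with 1-nitropyrene and 65.4 and 66.1 CPM in control, and rose by 0.24 (SE 0.07, adjusted p = 0.00585, edgeR). Replicates of Uchl5 were nearly equal within each group, and the call ended without control replicate 1 (0.23, adjusted p = 0.102). Usp14 shares 2169 bp of exon with Thoc1 on the opposite strand. Thoc1 itself had 34.8 and 36.9 CPM with 1-nitropyrene and 38.3 and 39.8 CPM in control and was not called. The library kit marks strand per the labels, but without a stated strand setting for the counting, reads of such pairs cannot be told apart, and the other called member that shares exon this way was Usp34.

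Uchl3, which releases ubiquitin from small adducts, had 53.4 and 50.3 CPM with 1-nitropyrene and 51.6 and 58.3 CPM in control, and the groups overlapped (log2 fold change -0.07, 95% interval of the ratio 0.851 to 1.07). Uchl4, a closely related mouse gene, had 3.68 and 2.59 CPM with 1-nitropyrene and 4.23 and 5.45 CPM in control and was not called (adjusted p = 0.174, edgeR). Of the 50-base stretches of Uchl4, 26.2% also occur in Uchl3, so part of its counts is uncertain. Uchl1, abundant in neurons, had 1 count in each 1-nitropyrene library and 0 in both controls. Of the 7 members in the recycling and proteasome group, 6 were tested, and Usp5 and Uchl5 rose while Usp14 fell (50% called, against 24.5% of all tested genes). These 6 members are too few to compare with that share.

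Among the genes that serve these proteasomal enzymes, Adrm1 (RPN13), the proteasome subunit that binds and activates Uchl5, fell while Uchl5 rose. Adrm1 had 61.1 and 57.8 CPM with 1-nitropyrene and 76.9 and 75.8 CPM in control (log2 fold change -0.36, SE 0.07, adjusted p = 1.89e-05, edgeR), with no overlap. Psmd1 (RPN2), the scaffold on which Adrm1 sits, had 239.8 and 247 CPM with 1-nitropyrene and 283 and 277 CPM in control, and fell by 0.21 on the log2 scale (SE 0.04, adjusted p = 1.54e-05, edgeR). The calls of Adrm1 and Psmd1 held in all 16 alternative settings, while that of Uchl5 was lost in 2. Psmd2 (RPN1), where Usp14 docks, was not called (log2 fold change -0.12, adjusted p = 0.302, edgeR).

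In the endoplasmic reticulum and mitochondrial group, 1 of 2 tested members rose. Of all tested genes 24.5% were called (13.2% higher), and 2 members are too few to compare with that share. Usp19 (ENSMUSG00000006676, chromosome 9, 108490602 to 108502337) has a membrane-anchored form in the endoplasmic reticulum and takes part in protein quality control there. It had 289.6 and 272 CPM with 1-nitropyrene and 203 and 215 CPM in control. All 4 replicates were well separated by group, with means of 281 ± 12.7 CPM with 1-nitropyrene and 209 ± 8.67 CPM in control, a 1.35-fold rise (95% interval 1.27 to 1.43, log2 fold change 0.43, SE 0.04, adjusted p = 3.12e-21, edgeR). Its call held in all 16 alternative settings. Usp30, the outer-membrane enzyme that opposes Parkin in mitophagy, had 0 counts in all 4 libraries, which allows up to 0.345 and 0.353 CPM with 1-nitropyrene and 0.276 and 0.430 CPM in control, at 3 counts per library. Usp35 had 5.87 and 5.29 CPM with 1-nitropyrene and 6.07 and 6.88 CPM in control and was not called.

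Of 14 tested members that act on endosomes, receptors and signalling, 3 rose and 2 fell (35.7% called, against 24.5% of all tested genes). Usp9x, a very large enzyme that protects many substrates from degradation, had 344 and 356 CPM with 1-nitropyrene and 287 and 296 CPM in control (log2 fold change 0.27, SE 0.04, adjusted p = 3.57e-10, edgeR). Usp4, which deubiquitinates the type I TGF-beta receptor, had 194 and 196 CPM with 1-nitropyrene and 168 and 169 CPM in control (0.21, SE 0.05, adjusted p = 0.000138, edgeR). For both genes the groups were apart by several times the gap between replicates, and both calls held in all 16 alternative settings. Of the 50-base stretches of Usp9x, 6.08% also occur in transcripts of other genes. The paralogs of Usp4 were not called: Usp15 had 34.4 and 27.4 CPM with 1-nitropyrene and 28.2 and 27.1 CPM in control, and Usp11 had 24.0 and 16.1 CPM with 1-nitropyrene and 19.6 and 19.3 CPM in control.

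Usp34, which stabilises axin in the Wnt pathway, was the weakest of the rises, at 339 and 333 CPM with 1-nitropyrene and 297 and 327 CPM in control. One control reached nearly to the treated level, and the log2 fold change, 0.11 with an SE of 0.04 (adjusted p = 0.0172, edgeR), shrank to 0.04 without control replicate 1 (adjusted p = 0.687). With unscaled totals it was 0.08 (adjusted p = 0.103), and leaving out 1-nitropyrene replicate 2 gave 0.10 (adjusted p = 0.0915), neither of them called. Usp34 shares 2137 bp of exon with the opposite-strand gene Ahsa2, which was not called.

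The steepest fall was that of Otub2, an OTU family enzyme. Counts were few, 73 and 57 with 1-nitropyrene and 161 and 80 in control, or 8.40 and 6.70 CPM with 1-nitropyrene and 14.8 and 11.5 CPM in control. The groups were apart, but the controls also differed widely from each other. The log2 fold change was -0.83 (SE 0.19, adjusted p = 0.00018, edgeR), and it was -0.60 and not called without control replicate 1 (adjusted p = 0.119). Usp32, a membrane-bound enzyme of the endosomal system, had 113 and 118 CPM with 1-nitropyrene and 132 and 129 CPM in control, and fell by 0.18 on the log2 scale (SE 0.06, adjusted p = 0.00805, edgeR). Leaving out control replicate 1 or 1-nitropyrene replicate 2 ended that call, with adjusted p = 0.147 and 0.0994.

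In the remaining signalling enzymes no change was called. Usp31 came closest, with 66.1 and 73.9 CPM with 1-nitropyrene and 81.0 and 75.1 CPM in control (log2 fold change -0.17, SE 0.07, adjusted p = 0.075, edgeR), and it was called lower in 3 settings, without 1-nitropyrene replicate 3 (-0.25), with unscaled totals (-0.20) and among genes averaging at least 10 CPM (-0.19). Usp8, which acts on sorting of receptors at endosomes, had 24.2 and 23.6 CPM with 1-nitropyrene and 27.0 and 26.1 CPM in control. Otud7b, a regulator of non-canonical NF-kB signalling, had 22.7 and 24.2 CPM with 1-nitropyrene and 18.9 and 19.3 CPM in control (log2 fold change 0.29, adjusted p = 0.0937, edgeR). Usp18, which removes the interferon-induced modifier ISG15, had 0 counts in all 4 libraries.

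Of 10 tested chromatin and DNA repair members, 1 rose and 2 fell (30.0% called, near the 24.5% of all tested genes). Otub1, which restrains the ubiquitin-conjugating enzyme UBC13 in DNA damage signalling without needing its own catalysis, had 41.3 and 43.4 CPM with 1-nitropyrene and 32.2 and 34.8 CPM in control (log2 fold change 0.35, SE 0.10, adjusted p = 0.0035, edgeR). The groups did not overlap, and the call ended without control replicate 1 (0.28, adjusted p = 0.166). Otub1 and Otub2, the only Otub members, thus moved in opposite directions, though DESeq2 called neither. Usp47, which acts on DNA polymerase beta in base excision repair, had 329 and 328 CPM with 1-nitropyrene and 353 and 353 CPM in control. Each pair of replicates was nearly identical, and the fall of 0.10 on the log2 scale (SE 0.04, adjusted p = 0.0287, edgeR) kept its size when any 1 library was left out, yet was called in none of those 4 fits (adjusted p between 0.0773 and 0.148). Usp21, a histone H2A deubiquitinase, had 24.4 and 22.7 CPM with 1-nitropyrene and 30.4 and 27.8 CPM in control (log2 fold change -0.32, SE 0.12, adjusted p = 0.0337, edgeR). Its call was lost in 3 of the 4 fits that left out 1 library, the exception being control replicate 2.

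Usp22, the deubiquitinase of the SAGA coactivator complex that acts on histone H2B, had 121 and 113 CPM with 1-nitropyrene and 103 and 109 CPM in control and fell just short of the threshold (log2 fold change 0.15, SE 0.06, adjusted p = 0.0579, edgeR). It was called without 1-nitropyrene replicate 3 (0.19, adjusted p = 0.028) and in a fit of protein-coding genes alone (0.15, adjusted p = 0.0466). Of the 4 listed genes tied to this module, Eny2 rose by 0.28 (SE 0.08, adjusted p = 0.00677, edgeR) and Atxn7l3 fell by 0.10 on the log2 scale (SE 0.04, adjusted p = 0.0397, edgeR), while Atxn7 (0.22, adjusted p = 0.474) and Atxn7l3b (-0.17, adjusted p = 0.378) were not called. The Atxn7l3 call ended in 3 of the 4 fits that left out 1 library, the exception being 1-nitropyrene replicate 3. Eny2 had 59.1 and 57.1 CPM with 1-nitropyrene and 49.0 and 46.6 CPM in control, with no overlap, and shares 266 bp of exon with Nudcd1 on the opposite strand. Leaving out 1-nitropyrene replicate 2 or control replicate 2 ended its call, with adjusted p = 0.0618 and 0.0897 in edgeR. Usp27x, a relative of Usp22, had 19.3 and 14.7 CPM with 1-nitropyrene and 17.6 and 20.2 CPM in control, with overlapping groups. Usp1, which acts on FANCD2 and PCNA, was at 26.5 and 24.8 CPM with 1-nitropyrene and 27.5 and 29.8 CPM in control, and 21.4% of its 50-base stretches also occur in transcripts of other genes. Its cofactor Wdr48 (UAF1) had 57.3 and 56.9 CPM with 1-nitropyrene and 49.3 and 52.6 CPM in control and was not called (adjusted p = 0.123, edgeR). Neither of the other enzymes that Wdr48 activates was called. Usp12 had 34.5 and 37.5 CPM with 1-nitropyrene and 37.9 and 31.4 CPM in control, and Usp46 had 29.9 and 32.8 CPM with 1-nitropyrene and 29.3 and 26.1 CPM in control.

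Of 9 tested members of the p53, MYC and cell cycle group, 1 rose and none fell (11.1% called, against 24.5% of all tested genes). That 1 was Otud5, which acts on p53 and, in interferon signalling, on TRAF3, with 66.8 and 61.2 CPM with 1-nitropyrene and 53.3 and 51.2 CPM in control (log2 fold change 0.29, SE 0.08, adjusted p = 0.00244, edgeR). Its call ended without 1-nitropyrene replicate 2 (0.22, adjusted p = 0.0865). Usp7, which stabilises both MDM2 and p53, was nearly level, at 399.6 and 405 CPM with 1-nitropyrene and 391 and 388 CPM in control. With its depth, the 95% interval of the ratio was narrow, 0.983 to 1.08. Usp7 was the only tested member of this group averaging at least 100 CPM, the level above which calls were more frequent. Usp28, which opposes FBXW7-dependent degradation of MYC, had 20.01 and 19.7 CPM with 1-nitropyrene and 21.5 and 19.9 CPM in control, with overlapping groups (log2 fold change -0.07, SE 0.14, adjusted p = 0.763, edgeR). At this depth its interval, 0.792 to 1.14, still held a fall as large as the one called in Usp32. Usp10, which acts on p53, had 9.43 and 11.3 CPM with 1-nitropyrene and 11.9 and 11.3 CPM in control. G3bp2, a stress granule protein that binds Usp10, rose by 0.35 (SE 0.05, adjusted p = 1.38e-09, edgeR), with 163 and 165 CPM with 1-nitropyrene and 128 and 129.6 CPM in control. It shares 2050 bp of exon with the opposite-strand gene Gm26582. Its paralog G3bp1, which also binds Usp10, had 289.4 and 269.8 CPM with 1-nitropyrene and 273 and 276 CPM in control and was not called (log2 fold change 0.03, adjusted p = 0.675, edgeR).

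**Figure D2:**
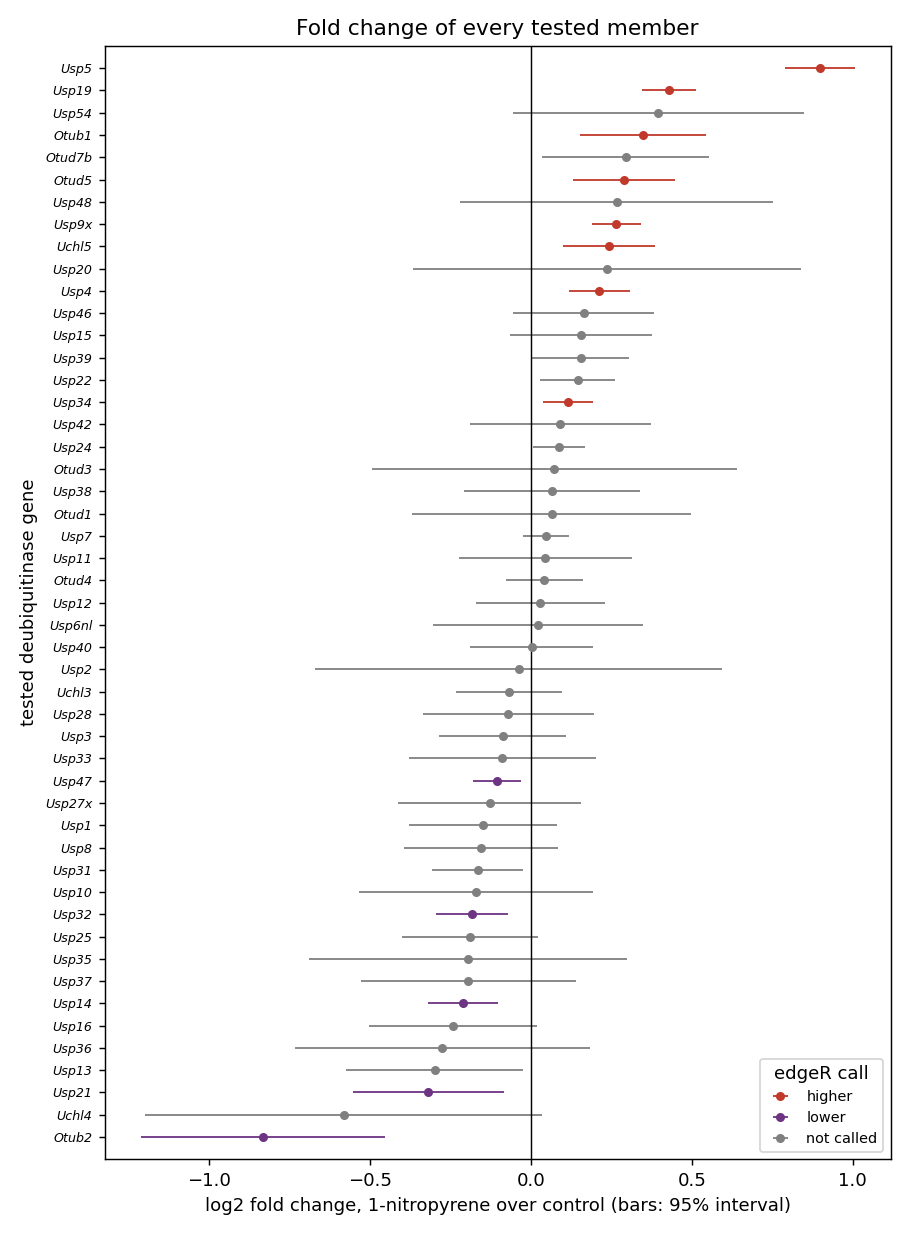
Log2 fold change of 1-nitropyrene over control (horizontal axis) for each of the 49 tested members, with bars for the 95% interval and colour for the edgeR call. Usp5 stands alone near 0.90 at the top and Otub2 lies at -0.83 at the bottom, while the 36 members that were not called, in grey, include the widest intervals.

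Levels of different members were compared per kb of exon, in CPM per kb, using the union of annotated exons. Whether reads were recovered alike from each gene was not tested, and 12111 of 21942 protein-coding genes had 0 counts in every library. The order below therefore describes assigned reads only. Usp7 was the highest member in both groups, at 51.8 CPM per kb with 1-nitropyrene and 50.1 in control. Usp19 stood at 39.8 with 1-nitropyrene and 29.7 in control, and Usp5 at 38.4 with 1-nitropyrene and 20.4 in control. With 1-nitropyrene these levels were closer than the replicates of Usp19 were to each other, so they were not ordered, while in control Usp5 ranked 8 among the members. Usp39, with 64.2 and 71.2 CPM with 1-nitropyrene and 59.4 and 62.8 CPM in control, followed at 27.7 with 1-nitropyrene and 25.0 in control and was not called (log2 fold change 0.15, adjusted p = 0.134, edgeR). Usp22, Usp9x, Usp24, Usp47 and Usp4 lay between 22.6 and 23.9 CPM per kb with 1-nitropyrene, too close to be ordered. Usp24, a large enzyme, had 276 and 290.4 CPM with 1-nitropyrene and 263 and 271 CPM in control (log2 fold change 0.09, adjusted p = 0.113, edgeR). The lowest tested member was Usp20, at 0.482 with 1-nitropyrene and 0.422 in control. The 49 tested members had a median level of 4.20 CPM per kb over all libraries.

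**Figure D3:**
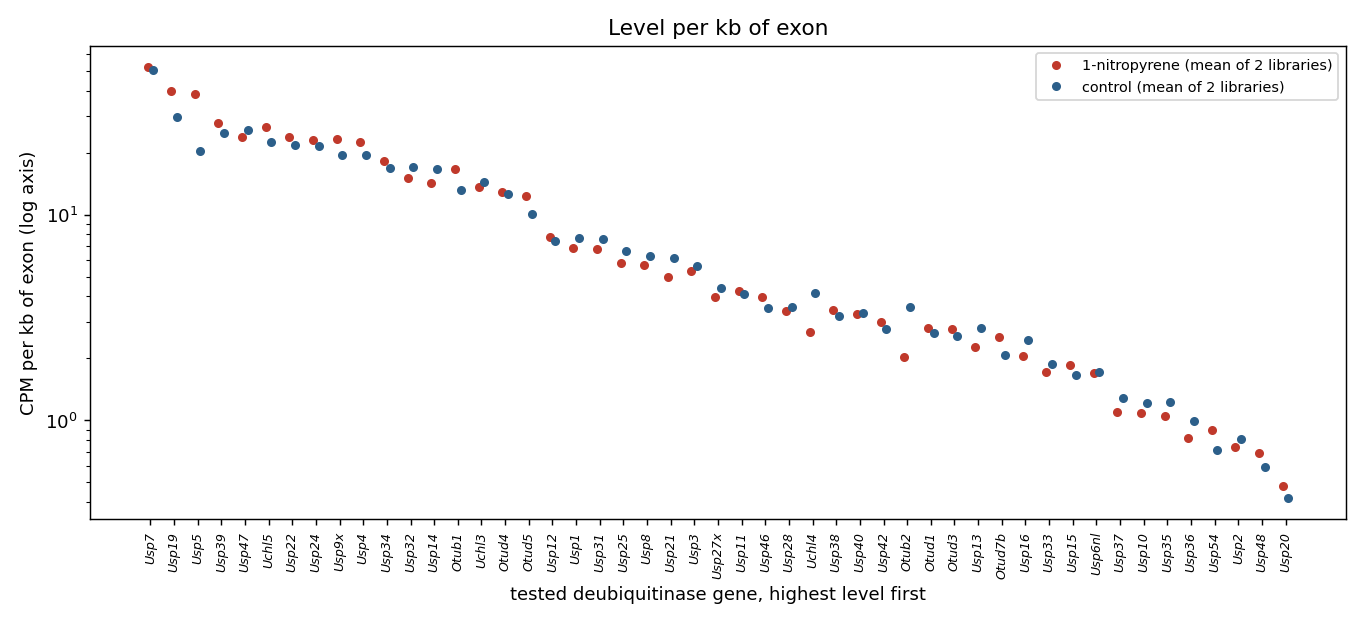
Mean CPM per kb of exon (vertical log axis) of the 49 tested members, ordered by their mean over all libraries, with red for 1-nitropyrene and blue for control (2 libraries each). Usp7 is highest in both groups, and the red and blue points are farthest apart for Usp5 among the abundant members.

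Another 17 tested members without a call were Usp2, Usp3, Usp16, Usp20, Usp25, Usp33, Usp36, Usp37, Usp38, Usp40, Usp42, Usp48, Usp54, Usp6nl, Otud1, Otud3 and Otud4. Their log2 fold changes ran from -0.28 in Usp36 to 0.40 in Usp54. The groups were apart in 4 of the 17, all of them lower (Usp16, Usp25, Usp36 and Usp3). Of all tested genes 59.2% had groups apart, with 29.2% having both treated libraries below both controls. Usp54 had 8.74 and 7.64 CPM with 1-nitropyrene and 5.15 and 7.88 CPM in control, so that 1 control was above a treated library. The most abundant of the 17 was Otud4, with 105 and 103 CPM with 1-nitropyrene and 98.3 and 105 CPM in control.

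The 15 members that could not be tested were Otud7a, Usp51, Usp53, Otud6b, Usp50 and Uchl1, with at most 7 counts in any library, and Otud6a, Usp18, Usp26, Usp29, Usp30, Usp43, Usp44, Usp45 and Usp49, with 0 counts in all 4 libraries. They were too low for any statement about 1-nitropyrene.

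A list of 27 genes outside the rule held other deubiquitinases and relatives of them. Its counts are therefore not of active deubiquitinases alone. Of the listed genes 22 were tested, 2 rose and 5 fell. The share called was 31.8%, against 24.5% of all tested genes (13.2% higher and 11.2% lower). Cyld, a USP-type enzyme that removes lysine 63-linked and linear chains and restrains NF-kB, fell the most, with 26.1 and 26.8 CPM with 1-nitropyrene and 46.4 and 42.3 CPM in control (log2 fold change -0.76, SE 0.10, adjusted p = 1.49e-11, edgeR). Its groups were far apart, and the call held in all 16 alternative settings. Brcc3, the lysine 63-specific enzyme of the BRCA1-A complex, had 14.5 and 15.98 CPM with 1-nitropyrene and 19.1 and 24.1 CPM in control (-0.47, SE 0.14, adjusted p = 0.00714, edgeR). It was not called without 1-nitropyrene replicate 2 (adjusted p = 0.0935) or control replicate 2 (adjusted p = 0.201). Mindy2, which trims lysine 48-linked chains, had 16.3 and 11.9 CPM with 1-nitropyrene and 18.8 and 20.2 CPM in control. It fell by 0.45 on the log2 scale (SE 0.15, adjusted p = 0.0147, edgeR), but by 0.24 without 1-nitropyrene replicate 3 (adjusted p = 0.379), and its call also ended without control replicate 1 (adjusted p = 0.0598) or control replicate 2 (adjusted p = 0.0989). Eif3f, a subunit of a translation initiation factor, had 169 and 179 CPM with 1-nitropyrene and 155 and 151 CPM in control, a rise of 0.18 (SE 0.05, adjusted p = 0.00279, edgeR). Leaving out 1-nitropyrene replicate 3 or control replicate 2 ended the call, with adjusted p = 0.077 and 0.0631. Psmd7 and Zranb1 also fell and Cops5 rose, each by less than 0.2 on the log2 scale. Psmd7 lost its call without 1-nitropyrene replicate 2 (-0.08) or control replicate 1 (-0.07). Zranb1 lost it without 1-nitropyrene replicate 3 (-0.15) or control replicate 2 (-0.09), and so did Cops5 (0.14 and 0.13). The nuclear tumour suppressor Bap1, at 288 and 315 CPM with 1-nitropyrene and 287 and 288 CPM in control, was not called, except without 1-nitropyrene replicate 2 (0.13, adjusted p = 0.0267, edgeR). The median log2 fold change of the 22 genes was -0.06.

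Among 18 cofactors of the members, all of them tested, 2 rose (G3bp2 and Eny2) and 3 fell (Psmd1, Adrm1 and Atxn7l3), with a median log2 fold change of -0.03. The share called was 27.8%, near the 24.5% of all tested genes. Fbxw7, on this list as the ligase that Usp28 opposes, was not called (log2 fold change -0.21, SE 0.12, adjusted p = 0.196, edgeR).

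**Figure D4:**
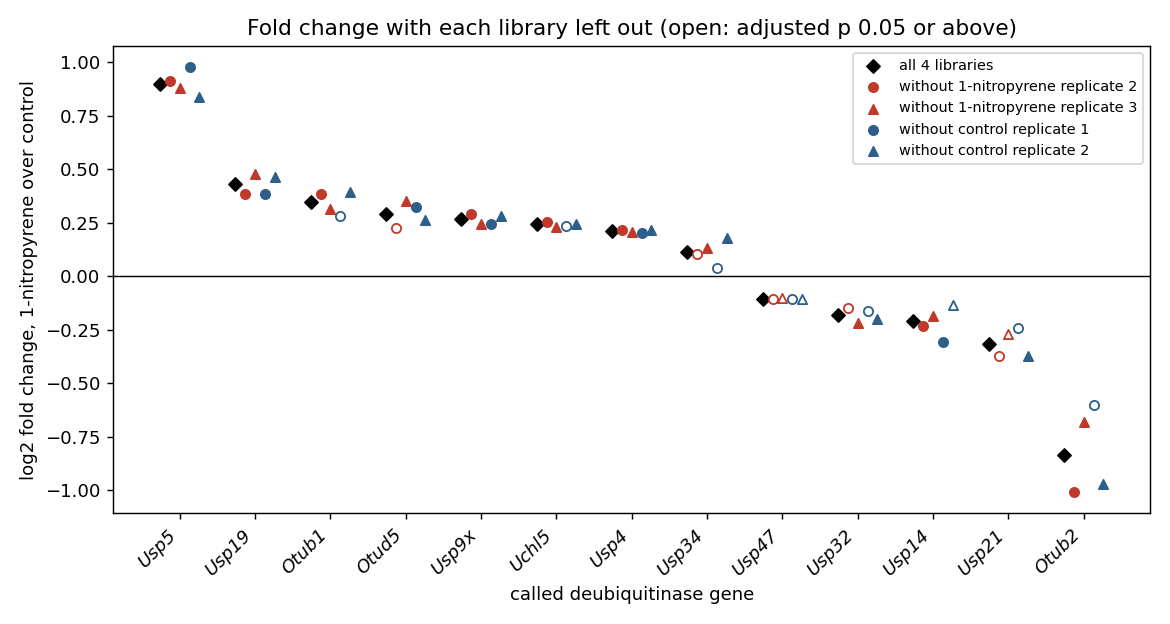
Log2 fold change of 1-nitropyrene over control (vertical axis) for the 13 called members, with all 4 libraries (black) and with each library left out in turn, where open symbols mark an adjusted p of at least 0.05. Usp5, Usp19, Usp9x and Usp4 keep filled symbols throughout, while Usp47 is open in all 4 fits that leave out a library.

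Usp4 and Usp19, which both rose, lie on the same strand of chromosome 9 with 98 kb between them. The 250 bases before the RefSeq start of each are shown here on the plus strand of GRCm38.p6, because these are neighbouring members that moved together. Capitals mark the motif GGGCGG, the GC box, or its reverse complement.
Usp4 (chr9:108347581-108347830): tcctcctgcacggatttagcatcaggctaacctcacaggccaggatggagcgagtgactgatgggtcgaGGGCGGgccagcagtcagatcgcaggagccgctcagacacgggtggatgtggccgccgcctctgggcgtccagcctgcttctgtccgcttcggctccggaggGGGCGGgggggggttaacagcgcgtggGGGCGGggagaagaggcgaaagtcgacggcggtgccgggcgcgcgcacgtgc
Usp19 (chr9:108490426-108490675): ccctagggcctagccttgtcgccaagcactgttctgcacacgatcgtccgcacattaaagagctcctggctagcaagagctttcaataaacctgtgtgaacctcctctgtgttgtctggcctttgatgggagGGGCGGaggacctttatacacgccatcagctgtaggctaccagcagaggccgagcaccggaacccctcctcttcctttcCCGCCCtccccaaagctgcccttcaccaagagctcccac
Usp4 held 3 matches and Usp19 held 2. The Usp19 stretch runs past 108490602, where the GENCODE gene starts, so its CCGCCC match lies inside that annotated gene. Searched on both strands of the same 250 bases, GGGCGG was present in 30 of the 40 tested members with a listed promoter (75%), against 65.8% of 5531 tested genes with one. Over all listed promoters it was in 33 of 50 members (66%), against 32.9% of 27025 genes. It stood in 5 of 6 promoters of members that rose, 3 of 4 of members that fell and 22 of 30 of members that were not called. CCAAT was present in 7 of the 40 tested members (17.5%), against 36.4% of tested genes. TGACGTCA was present in 0 of the 40 and in 3.02% of tested genes, and the palindromic NRF1 motif in 0 of the 40 and in 1.72% of tested genes. These matches describe the letters only.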

How the data were processed

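The deposited table holds raw read counts per gene, with 1 column per library and no normalization by the authors. The submitters' processing notes list HISAT2 2.1.0, featureCounts 1.6.3, DESeq2 and GRCm38 (mm10). For the annotation release, the strand setting and multi-mapping reads, the treatment is not given in the sources used here. Symbols and exons came from GENCODE M21, which matched 53360 of 53465 identifiers. Counts were filtered with filterByExpr (7738 genes kept) and fitted in edgeR 4.0.16 (R 4.3.3) with TMM factors and treatment as the single term, using the quasi-likelihood method of edgeR 4. The estimated dispersion gave a biological coefficient of variation of 2.34%, and p-values were Benjamini-Hochberg adjusted over all tested genes. Dividing the size of a log2 fold change by the root of its F statistic gave the SE. Intervals are at 95%. The fit was tested on simulated data with the same dispersion, 0.001, in every gene, where the data gave 0.000546. It recovered 40.3% of 1.25-fold changes, 65.7% of 1.5-fold changes and 87.9% of 2-fold changes, and 3.01% of its calls were false. Many changes as small as those of most called members would thus be missed. The fit gives no gene a spread of its own, as in that simulation. The share of false calls therefore does not carry over to genes whose spread differs. Replicates differed by more than sampling noise (chi-square per degree of freedom 2.05 for 1-nitropyrene and 1.62 for control). Alternatives were other scalings, filters and gene sets, DESeq2 1.42.0, limma-voom (limma 3.58.1), the older and the robust quasi-likelihood methods, a threshold of 0.01 and each library left out. Floors of 3 counts cover counting error only. Shared sequence was counted as 50-base stretches of a gene's transcripts found in transcripts of other genes in the same sense. Members were fixed by symbol. They, the gene lists and the tests were chosen with earlier results of these data known. Values per library are given for each called member, the 5 highest uncalled members per kb and Usp28, and, of each other list, for up to 4 called genes. The other members with values per library (Usp13, Uchl4, Usp15, Usp11, Usp8, Usp31, Usp35, Usp54, Otud4, Otud7b, Usp27x, Usp1, Usp12, Usp46 and Usp10), Thoc1, Wdr48, Bap1, G3bp1, Atxn7, Atxn7l3b, Psmd2 and the promoters and sequences shown were chosen after values were seen.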

Additional observations from a re-analysis of the deposited data

How the results depend on the processing

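Over 16 alternatives 23 members and 19 other genes gave 669 log2 fold changes, of which 582 kept direction and side of the threshold, 77 lost their call, 6 gained one and 4 changed sign. The sign changes were of genes without a call. Uchl3 had a log2 fold change between -0.17 and 0.0041 when 1 library was left out, positive without control replicate 2. Without 1-nitropyrene replicate 2, G3bp1 and Atxn7 turned negative, with ranges of -0.023 to 0.078 and -0.026 to 0.42 over the libraries left out, and G3bp1 was -0.0018 with unscaled totals. Of the 13 called members, DESeq2 kept Usp5, Usp19, Usp9x and Usp4. It called 4 higher and 0 lower members of the 43 with an adjusted p (7 higher and 3 lower at an unadjusted p under 0.05). In all it called 706 genes, 13.1% of the 5390 with an adjusted p. Of the other listed deubiquitinases, their relatives and the cofactors, it kept Cyld, G3bp2, Psmd1 and Adrm1. It did not keep Eif3f, Brcc3, Mindy2, Eny2, Psmd7, Zranb1, Cops5 and Atxn7l3 (adjusted p between 0.118 and 0.342). Without a filter on low counts 2 of 55 members were lower, against 532 of 12182 genes. At an adjusted p under 0.01 there were 3 of 49 lower, against 568 of 7738 genes. With 1 library left out, members higher ranged from 5 to 9, members lower from 1 to 4 and all genes called from 1201 to 1502, the lowest of each without control replicate 1, the deepest library. Without 1-nitropyrene replicate 2, and likewise without control replicate 2, 3 members were lower. The cause of these changes was not tested. With unscaled totals the split was 7 higher and 6 lower of 49 members, against 868 higher and 1017 lower of 7738 genes. Where a fit left 1 library in a group, its spread was taken from the other group. No paired analysis was possible because the groups share only replicate number 2.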
